A study of Mus musculus with 19 samples.

Results

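The nonclassical MHC class I genes of primary p53/MCA sarcomas were described here as 9 rows of the expression table, chosen by gene symbol: H2-T23, H2-T22, H2-T24, H2-Q4, H2-Q6, H2-Q7, H2-M3, Cd1d1 and Mr1. All 9 were among the 48795 genes of the table and all 9 lay above the low-value filter, which kept 12826 genes. Their levels were compared between 11 sarcomas from Rag2-/- mice, which cannot rearrange antigen receptor genes and so lack mature T and B cells, and 8 from Rag2+/- littermates, which have 1 intact copy of Rag2 and are lymphocyte-competent. In both groups the tumor was induced at 6 to 10 weeks of age by injecting the gastrocnemius muscle with adenovirus expressing Cas9 together with a Trp53 guide RNA, and then 300 µg of the carcinogen 3-methylcholanthrene (MCA). The tumors received no further treatment and were collected whole at 70 to 150 mm3, so each value is a mixture of tumor, stroma, infiltrating cells and adjacent muscle. Fewer cells of a type and less RNA per cell cannot be told apart in such samples. The labels give 1 sample per tumor, and the strain of the Rag2 mice is not given in the sources used here.

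Classical class I molecules (H2-K and H2-D) present cytosolic peptides to CD8 T cells. The nonclassical molecules share their fold and, for the most part, their light chain β2-microglobulin, but they vary less between individuals and present narrower sets of ligands to more specialised cells. In the mouse the H2-Q, H2-T and H2-M genes lie in the MHC on chromosome 17, whereas Cd1d1 and Mr1 lie outside it. Transcription of class I genes is driven largely by interferon-responsive elements and by NLRC5, which acts through an X and Y box module near the start site.

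The sequences just before the start sites are shown because they hold, or lack, exact matches to known class I control motifs. Whether these motifs bear on the correlations with Nlrc5 given further down was not tested. Each sequence shown is from RefSeq (build GRCm38.p6), up to 250 bases before the annotated start, cut at the first start in either annotation used. Capitals mark exact matches, on either strand, to the core of an interferon-stimulated response element (TTTCACTT), to an X box (TGATGAC) and to a CCAAT box (CCAAT, which reads ATTGG on the other strand).
H2-Q4 (chr17:35379367-35379616, plus strand): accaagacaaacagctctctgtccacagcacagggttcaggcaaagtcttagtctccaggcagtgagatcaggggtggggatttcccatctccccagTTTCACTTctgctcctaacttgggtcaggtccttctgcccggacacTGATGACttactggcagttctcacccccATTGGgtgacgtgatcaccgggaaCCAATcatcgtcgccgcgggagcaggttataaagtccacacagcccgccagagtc
H2-Q6 (chr17:35424600-35424849, plus strand): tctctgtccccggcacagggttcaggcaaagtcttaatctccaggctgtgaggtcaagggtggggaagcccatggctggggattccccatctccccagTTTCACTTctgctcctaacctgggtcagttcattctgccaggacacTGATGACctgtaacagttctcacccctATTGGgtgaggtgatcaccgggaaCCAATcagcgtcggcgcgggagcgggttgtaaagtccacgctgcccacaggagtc
H2-Q7 (chr17:35438905-35439154, plus strand): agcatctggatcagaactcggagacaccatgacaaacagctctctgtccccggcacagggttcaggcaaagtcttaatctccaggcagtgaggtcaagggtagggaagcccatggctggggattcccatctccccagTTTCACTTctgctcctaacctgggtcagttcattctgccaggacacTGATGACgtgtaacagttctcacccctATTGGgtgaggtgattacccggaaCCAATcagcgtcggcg
H2-T22 (chr17:36042748-36042992, minus strand): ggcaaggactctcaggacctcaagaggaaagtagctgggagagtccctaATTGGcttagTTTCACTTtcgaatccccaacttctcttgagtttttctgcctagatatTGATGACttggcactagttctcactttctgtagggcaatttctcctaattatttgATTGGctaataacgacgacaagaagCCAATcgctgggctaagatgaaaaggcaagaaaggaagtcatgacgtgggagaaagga
H2-M3 (chr17:37269984-37270219, plus strand): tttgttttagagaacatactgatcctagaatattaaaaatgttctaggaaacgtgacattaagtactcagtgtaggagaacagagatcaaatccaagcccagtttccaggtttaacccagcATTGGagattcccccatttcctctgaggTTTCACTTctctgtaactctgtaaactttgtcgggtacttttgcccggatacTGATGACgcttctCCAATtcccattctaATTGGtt
Mr1 (chr1:155146815-155147064, minus strand): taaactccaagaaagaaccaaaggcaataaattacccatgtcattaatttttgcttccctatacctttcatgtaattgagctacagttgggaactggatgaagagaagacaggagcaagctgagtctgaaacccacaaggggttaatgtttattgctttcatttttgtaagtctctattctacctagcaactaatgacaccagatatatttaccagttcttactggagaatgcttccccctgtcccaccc
H2-K1 (chr17:34000348-34000597, minus strand): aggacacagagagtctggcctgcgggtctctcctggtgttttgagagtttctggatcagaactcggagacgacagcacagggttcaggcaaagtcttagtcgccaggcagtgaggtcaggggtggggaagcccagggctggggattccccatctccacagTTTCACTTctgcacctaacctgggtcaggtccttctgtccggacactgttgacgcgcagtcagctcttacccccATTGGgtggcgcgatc

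The response element core and the X box were both found before the starts of H2-Q4, H2-Q6, H2-Q7, H2-T22 and H2-M3, that is in 5 of the 7 members with an entry. The core was found in 1.36% and the X box in 2.69% of all 32851 promoters over the same 250 bases, both occurred together in 0.067%, and a CCAAT box occurred in 33.8%. The 3 motifs did not overlap each other in the printed sequences. Neither the core nor the X box was found for H2-T23 in the 250 bases before its RefSeq start. Of those bases only 96 lay before the first annotated start, and the sequence further upstream was not searched. None of the 3 motifs was found before Mr1. The sequence before H2-K1, the classical gene shown for comparison, held the core and a CCAAT box but no exact X box. After ggacac, where H2-Q4 has its X box, H2-K1 reads tgttgac. An absent match says only that these letters are not in this window, and near matches were not searched for.

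**Figure D1:**
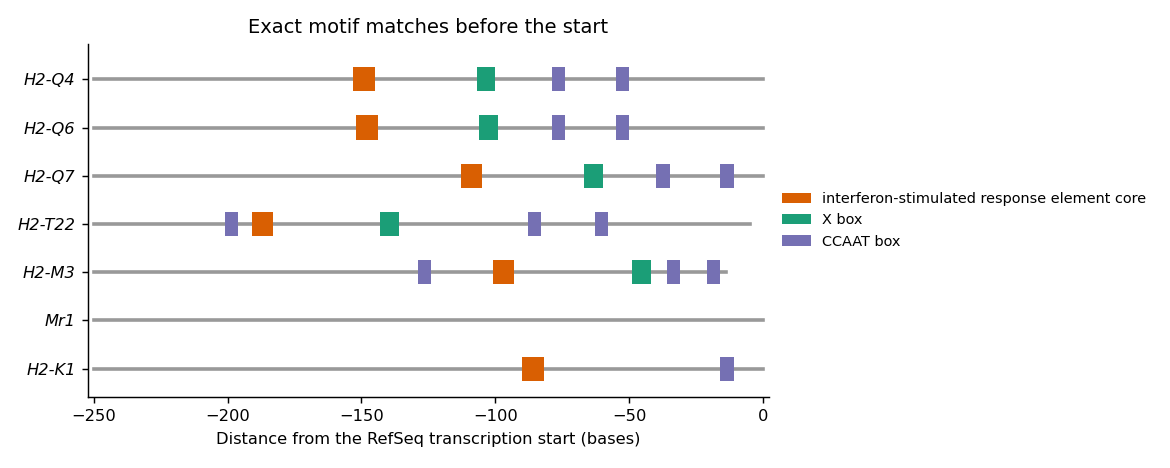
Positions of exact motif matches (colored boxes) before the RefSeq transcription start of 6 nonclassical class I genes and of H2-K1; the x axis is the distance from the start in bases and the gray line is the stretch searched. The core and the X box stand in the same order in H2-Q4, H2-Q6, H2-Q7, H2-T22 and H2-M3, and Mr1 has no match.

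Several members are close copies of other genes, which limits what a single value can mean. Of all 150-base windows of the longest coding transcript (the read length), 52.05% in H2-T22 also occurred in another gene with at most 2 mismatches, the limit the aligner was given, and 47.3% occurred in H2-T10. The share was 23.3% in H2-Q7, 22.3% in H2-Q6, 12.3% in H2-Q4 and 12.5% in H2-T23. For Cd1d1 it was 20.1%, all of it shared with its neighbor copy Cd1d2. No such window was found in H2-T24, H2-M3 or Mr1, so by this measure these 3 genes rest on unshared sequence. The levels of H2-Q6, H2-Q7, H2-Q4, H2-T22, H2-T23 and Cd1d1 are therefore uncertain as single-gene values, and class I genes also differ in number and sequence between mouse strains.

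The genotypes were checked first. The T cell marker list summed to between 0.70 and 5.41 FPKM in Rag2-/- tumors and to between 8.84 and 50.1 FPKM in Rag2+/- tumors, with no overlap, and Cd3e was at 0 in all 11 Rag2-/- tumors. Rag2 itself was at 0.797 FPKM (median) in Rag2-/- tumors and at 0.369 FPKM in Rag2+/- tumors. The table does not say from which part of the gene those fragments come, so this value does not check the label. All 8 genes of the mesenchymal list were detected in every tumor, with Col1a1 at a median of 850 and 638 FPKM in Rag2-/- and Rag2+/- tumors. The list summed to its lowest values in S51 (1568 FPKM) and S56 (1740 FPKM), against medians of 5640 and 4577 FPKM in the Rag2-/- and Rag2+/- groups. The 12 skeletal muscle genes were all lower in Rag2-/- tumors, 8 of them at an unadjusted limma p under 0.05, with summed levels from 336 to 112936 FPKM in Rag2-/- and from 1842 to 165892 FPKM in Rag2+/- tumors. Rag2-/- tumor S41 had the coarsest low values. The value of 1 fragment, read from the steps between low values, was 5.12 times the median over tumors, against 0.84 to 2.09 times in the other 18. This step depends on depth and on the upper quartile scaling, which cannot be told apart without library totals. S41 had 16607 genes above 0, within the 15581 to 19476 of the other tumors. Tumors S41, S46, S51 (all Rag2-/-) and S56 (Rag2+/-) are absent from the study's source data, which list 15, so results are also given for those 15.

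The 9 genes fell into a high and a low tier. Levels between genes are compared here in FPKM, which accounts for transcript length. By mean log2 level the order was H2-Q4, H2-T23, H2-Q7, H2-T22 and H2-Q6, with medians over all 19 tumors of 106, 108, 78.7, 84.4 and 49.5 FPKM, followed by H2-M3 at 17.7, H2-T24 at 7.998, Mr1 at 7.73 and Cd1d1 at 4.32 FPKM. H2-Q4 was above 96.2% of the tested genes and Cd1d1 above 29.3%. H2-Q4 and H2-T23 did not differ beyond their spread, with a mean log2 difference of 0.14 ± 0.50 (SD, n = 19). Neither did H2-Q7 and H2-T22, at 0.04 ± 0.39, or H2-T24 and Mr1, at 0.00 ± 0.75. The gap between the tiers was clear, since H2-Q6 exceeded H2-M3 in 19 of 19 tumors by 1.81 ± 0.59. H2-M3 likewise exceeded H2-T24 in 19 of 19 tumors, by 0.96 ± 0.43. Relative to H2-K1, at 724 FPKM, even H2-Q4 was lower by a median of 2.65 on the log2 scale.

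**Figure D2:**
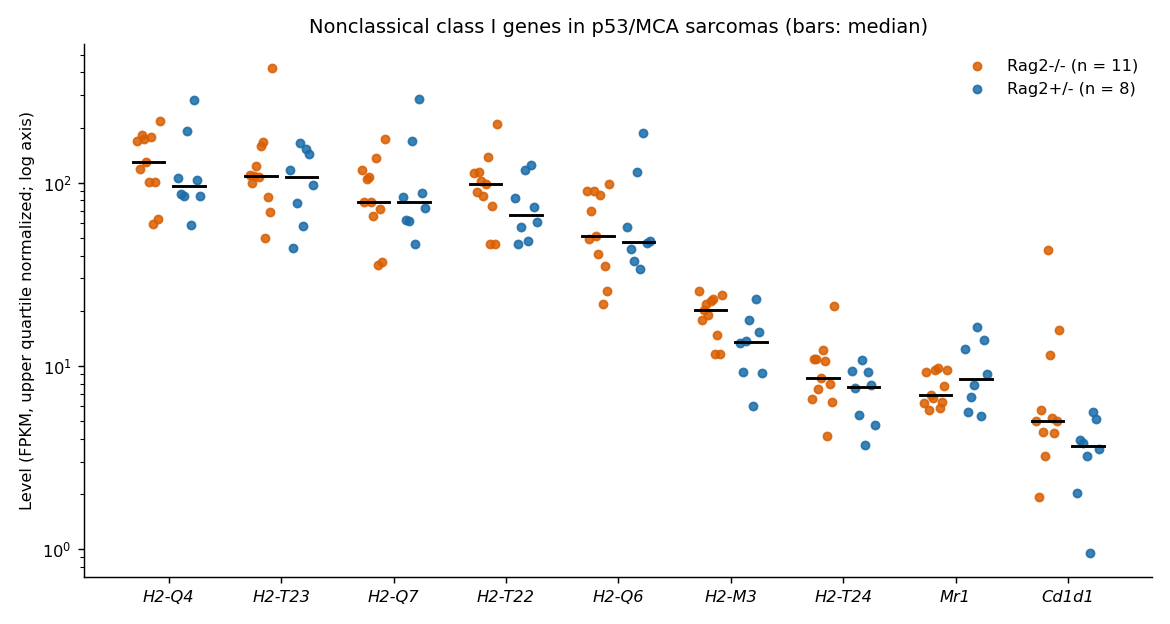
Levels of the 9 genes in each tumor, in upper quartile normalized FPKM on a log axis, with 11 Rag2-/- tumors in orange, 8 Rag2+/- tumors in blue and the group median as a bar. The genotypes overlap for every gene, and single tumors stand high for H2-T23 (422 FPKM) and Cd1d1 (42.6 FPKM).

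No member passed the test between genotypes. By limma over all 12826 genes, 0 of 9 members had an adjusted p under 0.05, against 0.0312% of all genes (4 genes), and an exact permutation test with adjustment over the same genes called none of them (0% of all genes). At an unadjusted limma p under 0.05, H2-M3 and Cd1d1 were higher in Rag2-/- tumors, that is 2 of 9 where 6.74% of all genes were, and no member was lower, where 9.56% of all genes were. By the exact permutation test only H2-M3 stayed under an unadjusted 0.05, where 14.9% of all genes did. Over the members 6 differences were positive and 3 negative, with a median of 0.25, and over all genes the median was 0.06.

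H2-M3 encodes the molecule that presents peptides beginning with N-formylmethionine, made by bacteria and mitochondria. It ranged from 11.5 to 25.6 FPKM (median 20.2) in Rag2-/- tumors and from 6.06 to 23.2 FPKM (median 13.5) in Rag2+/- tumors. The groups overlapped, with 2 Rag2-/- tumors above every Rag2+/- tumor and Rag2+/- tumor S56 lowest of all. The log2 difference was 0.58 (SE 0.23, limma p = 0.019, adjusted p = 0.30, exact permutation p = 0.023), with 9 of 11 Rag2-/- tumors above the Rag2+/- mean. It was 0.29 in the 15 listed tumors, at an unadjusted limma p of 0.20, and 0.43 without S56, at 0.051. With the muscle list as a covariate it was 0.54.

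Cd1d1 encodes CD1d, which presents lipids to natural killer T cells. It ranged from 1.92 to 42.6 FPKM (median 5.02) in Rag2-/- tumors and from 0.95 to 5.56 FPKM (median 3.64) in Rag2+/- tumors. It was the most variable member, 44.7 times higher in S46 than in S56, and 4 Rag2-/- tumors were above every Rag2+/- tumor. The log2 difference was 0.99 (SE 0.46, limma p = 0.044, adjusted p = 0.30, exact permutation p = 0.053). It was 0.30 in the 15 listed tumors (limma p = 0.33) and 0.72 without S46 (limma p = 0.066). Adipocyte markers moved with it in S46, where the 6 genes of that list summed to 5517 FPKM against medians of 24.4 in Rag2-/- and 78.3 in Rag2+/- tumors, and the macrophage and endothelial lists were also highest there, at 3524 and 245 FPKM. The next highest adipocyte sums, 736 FPKM in S47 and 548 FPKM in S51, were in the tumors with the next highest Cd1d1 levels, 11.4 and 15.7 FPKM. The sums that followed, 285 FPKM in S59, 244 FPKM in S60 and 171 FPKM in S56, went with Cd1d1 at 5.10, 3.50 and 0.953 FPKM, the last being the lowest of all. The part of these cells in the Cd1d1 level was not tested.

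H2-T23 encodes Qa-1, which displays leader peptides of classical class I molecules to the NK cell receptor CD94/NKG2A. It ranged from 49.6 to 422 FPKM (median 108) in Rag2-/- tumors and from 43.97 to 164 FPKM (median 107) in Rag2+/- tumors. The groups overlapped, with close medians and 2 Rag2-/- tumors above every Rag2+/- tumor. The log2 difference was 0.25 (SE 0.33, limma adjusted p = 0.65). Rag2-/- tumor S51 held the highest value, and without it the difference was 0.06. In the 15 listed tumors it was -0.14, and with the muscle list as a covariate it was 0.60.

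H2-T22, a ligand of some γδ T cell receptors, ranged from 45.98 to 210 FPKM (median 98.6) in Rag2-/- and from 46.5 to 125 FPKM (median 66.9) in Rag2+/- tumors. The lowest tumors of both groups were alike and 2 Rag2-/- tumors exceeded all Rag2+/- tumors. The log2 difference was 0.38 (SE 0.27, limma adjusted p = 0.42). Since it shares sequence with H2-T10, both were summed, and the difference of the sum was 0.39 (exact permutation p = 0.18). H2-T24 ranged from 4.13 to 21.3 FPKM (median 8.57) in Rag2-/- and from 3.69 to 10.8 FPKM (median 7.68) in Rag2+/- tumors, with overlapping groups and a log2 difference of 0.37 (SE 0.26, limma adjusted p = 0.42). These T-region differences were 0.10 and 0.08 in the 15 listed tumors.

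H2-Q6 and H2-Q7 encode Qa-2 proteins, which are largely anchored to the membrane by a lipid tail, and H2-Q4 encodes a related molecule that can be secreted. H2-Q7 ranged from 35.4 to 173 FPKM (median 78.7) in Rag2-/- and from 46.2 to 285 FPKM (median 78.3) in Rag2+/- tumors. Its groups overlapped with nearly equal medians, and the highest value was that of Rag2+/- tumor S58. The log2 difference was -0.14 (SE 0.34, limma adjusted p = 0.81). H2-Q6 ranged from 21.6 to 97.8 FPKM (median 51.1) in Rag2-/- and from 33.6 to 186 FPKM (median 47.7) in Rag2+/- tumors. Its difference was -0.15 (SE 0.35, limma adjusted p = 0.80), and again S58 was highest. Summed, H2-Q6 and H2-Q7 differed by -0.15 (exact permutation p = 0.69). Without S58 the differences were 0.08 for H2-Q6 and 0.09 for H2-Q7, and in the 15 listed tumors they were -0.43 and -0.44, with -0.43 for the sum. H2-Q4 ranged from 59.6 to 216 FPKM (median 130) in Rag2-/- and from 58.6 to 284 FPKM (median 95.3) in Rag2+/- tumors, also highest in S58. Its difference was 0.19 (SE 0.30, limma adjusted p = 0.70) over 19 tumors, 0.38 without S58, 0.06 without S56 and -0.05 over the 15.

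Mr1 encodes the molecule that presents microbial riboflavin metabolites to mucosal-associated invariant T cells. It ranged from 5.70 to 9.75 FPKM (median 6.90) in Rag2-/- and from 5.29 to 16.2 FPKM (median 8.45) in Rag2+/- tumors. It had the narrowest range of the members, 3.07-fold over 19 tumors, and 3 Rag2+/- tumors were above every Rag2-/- tumor. The log2 difference was -0.25 (SE 0.21, limma adjusted p = 0.46). The highest Mr1 value was in S56, the tumor with the most muscle RNA by the summed list, and with the muscle list as a covariate the difference was 0.10. It was -0.13 without S56, -0.16 without S59 and -0.19 in the 15 listed tumors.

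**Figure D3:**
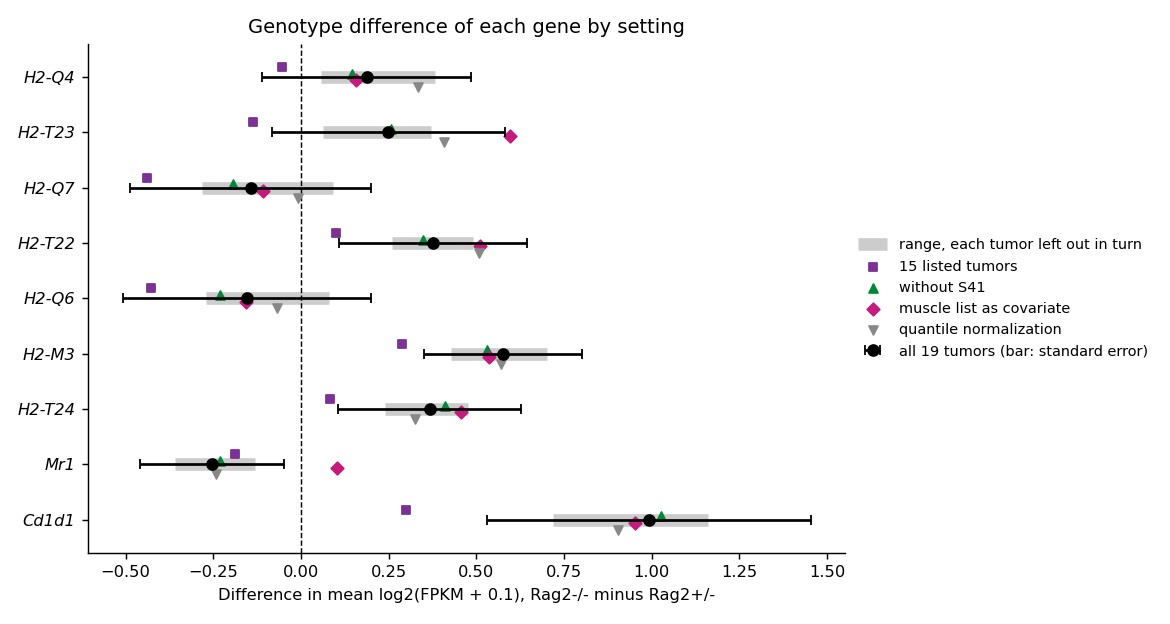
Difference in mean log2(FPKM + 0.1) of each gene, Rag2-/- minus Rag2+/-, with the standard error of the 19-tumor fit as a bar, the range with each tumor left out as a gray band, and 4 alternatives as colored marks. H2-M3 and Cd1d1 lie furthest above 0 and move to 0.29 and 0.30 in the 15 listed tumors.

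Genes of the same pathway were read beside the members. In the list of light chain and peptide loading genes, 0 of 12 passed the adjusted limma test and 0 had an unadjusted p under 0.05, and all 12 differences were positive, with a median of 0.30. B2m, the light chain itself, was at a median of 2177 FPKM in Rag2-/- and 1683 FPKM in Rag2+/- tumors, a log2 difference of 0.17 (SE 0.23, limma adjusted p = 0.65) that was 0.016 without S56. The chaperones Calr and Pdia3, the other genes of that list with the highest levels, differed by 0.26 and 0.49 at adjusted p = 0.39 and 0.34, and by 0.17 and 0.28 without S56. The classical genes H2-K1 and H2-D1 differed by 0.06 and 0.10 (SE 0.26 for each, limma adjusted p = 0.90 and 0.83), and neither was called. Without S56 these differences were -0.061 and -0.0024, and without S51 that of H2-K1 was -0.027.

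Among 8 genes of CD1d lipid loading, none was called and only Npc2, a lysosomal cholesterol carrier, had an unadjusted limma p under 0.05, at a log2 difference of 0.46 (adjusted p = 0.30), or 0.29 without S56. The lysosomal genes Psap and Ctsl differed by -0.02 and 0.42, at limma adjusted p = 0.96 and 0.42, the latter by 0.27 without S56, while Psap ran from -0.22 without S46 to 0.052 without S59. Among the 14 tested class I regulators, 0 were called, 3 were higher and 1 lower at an unadjusted p under 0.05. The signaling factors Stat2 and Irf9, which act downstream of type I interferon receptors, had log2 differences of 0.76 and 0.61. Rfx5, an X box binding subunit, differed by 0.51, with 9 of 11 Rag2-/- tumors above every Rag2+/- tumor, and Ifngr2, a chain of the interferon gamma receptor, by -0.31. All 4 had a limma adjusted p of 0.30. Nlrc5 itself differed by 0.48 (SE 0.36, limma adjusted p = 0.44), by 0.22 without S56 and by 0.30 without S51. In the type I interferon response list all 14 genes were higher in Rag2-/- tumors at an unadjusted limma p under 0.05, where 6.74% of all genes were. None of them was called, and the median difference was 0.91. The mean log2 level of that list was highest in S51 (6.28) and lowest in S56 (3.40). The 13 tested genes of the interferon gamma list had a median of 0.15, with none under 0.05.

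Receptors of the nonclassical molecules were mostly too low to test. Of 12 in the table, 4 passed the filter on low values and 0 were called, with 0 at an unadjusted limma p under 0.05. Klrd1, the CD94 chain of the Qa-1 receptor, was at a median of 4.18 FPKM in Rag2-/- and 3.11 FPKM in Rag2+/- tumors, with a log2 difference of 0.80 (limma adjusted p = 0.45) that was 0.19 without S56, where Klrd1 was at 0. Its partner chain NKG2A, encoded by Klrc1 and named here after its values were seen, was at medians of 1.495 FPKM in Rag2-/- and 1.509 FPKM in Rag2+/- tumors, with a difference of -0.26 (limma adjusted p = 0.75) that ran from -0.56 to -0.0087 with single tumors left out. Pirb, an inhibitory myeloid receptor for class I, differed by 0.27 and Zbtb16, a factor of innate-like T cells also made elsewhere, by -1.23, at limma adjusted p = 0.66 and 0.42, and that of Pirb was 0.057 without S56. Cd8a and Cd8b1, chosen after their values were seen, were the 2 receptors called when no filter was applied, where 0.136% of all genes were. Both are genes of CD8 T cells, which Rag2-/- mice lack, so like Cd3e they restate the genotype. Cd8a was at most 0.248 FPKM in Rag2-/- tumors and at least 0.738 FPKM in Rag2+/- tumors, without overlap (limma adjusted p = 6.35e-06). Cd8b1 likewise reached 0.236 FPKM at most against 1.06 FPKM at least (limma adjusted p = 7.33e-06). No fold is given for them, since 3 and 6 of the Rag2-/- tumors were at 0 and its size would be set by the added 0.1. Trav11 and Trav1, variable segments of the invariant receptors that see CD1d and MR1, were at 0 in all 19 tumors. The NK cell marker list, which holds neither chain of CD94/NKG2A, had positive differences in 6 of 6 tested genes, with none called. Of these genes 4 were higher at an unadjusted limma p under 0.05, where 6.74% of all genes were. Ncr1, among the 4, had a mean log2 level of -0.35 in Rag2+/- tumors, under the filter, and 0.98 in Rag2-/- tumors. Ncr1 thus entered the test through its Rag2-/- values.

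Of 30 other class I-like genes in the table, 9 were tested and 0 called, with 2 higher in Rag2-/- tumors at an unadjusted limma p under 0.05. They were H2-T10, the copy of H2-T22, with a log2 difference of 0.98 (limma adjusted p = 0.30), and Raet1e, a stress-induced ligand of the NK receptor NKG2D, with 1.77 (adjusted p = 0.30). H2-T10 was lowest in S56, without which its difference was 0.60. Raet1e was at 0 in 2 Rag2+/- tumors, S56 among them, so the size of its difference depends on the added 0.1. Its mean log2 level was -0.13 in Rag2+/- tumors, under the filter, and 1.64 in Rag2-/- tumors. Raet1e thus entered the test through its Rag2-/- values. Fcgrt, the neonatal Fc receptor, Hfe, a regulator of iron uptake, and Procr, the endothelial protein C receptor, differed by 0.29, -0.04 and -0.05, at limma adjusted p = 0.48, 0.91 and 0.92. That of Fcgrt was 0.099 without S46, and those of Hfe and Procr changed sign when single tumors were left out.

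Across tumors the H2 members moved together. With genotype means subtracted, the Pearson r of log2 levels over the 21 pairs of H2 members ran from 0.63 to 0.99 with a median of 0.84. These points share libraries, normalization and, for some pairs, sequence, so the values are descriptive. H2-Q4 and H2-Q7 were the closest pair, at 0.99, and H2-Q6 and H2-T24 the most distant of these, at 0.63. The pairs that hold Cd1d1 had a median r of 0.36 and those that hold Mr1 a median of -0.12. The Mr1 pairs differed in sign by genotype, a difference that was not tested. In the Rag2-/- tumors all 8 had a positive r, from 0.18 to 0.65. In the Rag2+/- tumors 7 of 8 had a negative r, down to -0.65. The Rag2+/- tumors highest in Mr1, S56, S59 and S52 (16.2, 13.8 and 12.3 FPKM), had muscle sums of 165892, 110798 and 73357 FPKM. S60, at a muscle sum of 127387 FPKM, had Mr1 at 9.06 FPKM. The part of muscle in these correlations was not tested. Beside the classical genes, r with H2-K1 was 0.96 for H2-T22 and 0.93 for H2-Q7, 0.53 for Cd1d1 and -0.04 for Mr1.

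**Figure D4:**
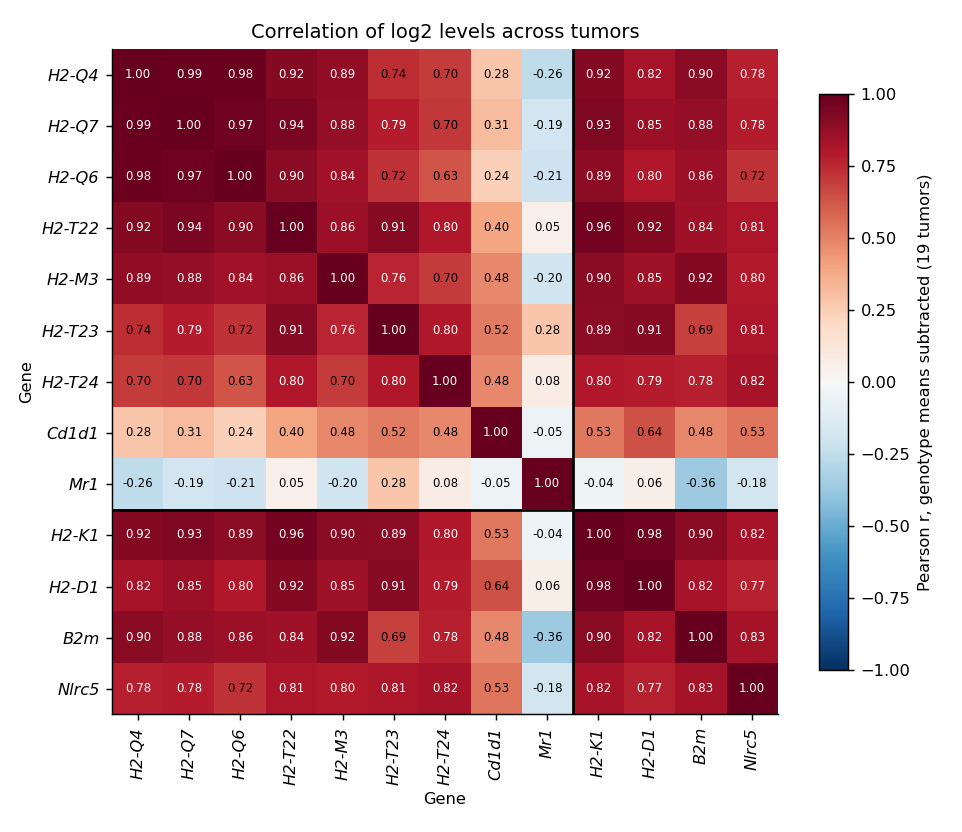
Pearson r between log2 levels over 19 tumors after subtraction of genotype means, for the 9 nonclassical genes and, beyond the black lines, for H2-K1, H2-D1, B2m and Nlrc5. The H2 genes form a block from 0.63 to 0.99, Cd1d1 runs from 0.24 to 0.52 with the H2 members and Mr1 from -0.26 to 0.28.

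Of all tested genes, those most like H2-T22 were Tap1 (r = 0.97), a peptide transporter subunit, H2-K1 (0.96) and the immunoproteasome subunit Psmb8 (0.95). Those most like H2-T23 were the complement gene Cfb (0.96), the granzyme inhibitor Serpinb9 (0.95) and the immunoproteasome subunit Psmb9 (0.95). H2-Q4 was most like H2-Q7 (0.99), H2-Q6 (0.98) and the interferon-induced Ifitm3 (0.95). H2-Q6 had the same partners in H2-Q4 (0.98), H2-Q7 (0.97) and Ifitm3 (0.92), and H2-Q7 had H2-Q4 (0.99), H2-Q6 (0.97) and H2-T22 (0.94). The 3 genes most like H2-M3 were Ifitm3 (0.92), B2m (0.92) and Lst1 (0.91), a gene of leukocytes. For H2-T24 they were Pilrb1 (0.92), Sp140 (0.90) and Parp14 (0.88). Cd1d1 was most like the glutamine transporter Slc1a5 (0.91), the glycerolipid enzyme Gpat3 (0.88) and the fatty acid elongation enzyme Hacd2 (0.86), and Mr1 was most like Exoc3 (0.92), Nmnat3 (0.92) and Arhgef10l (0.92). Each value is over 19 tumors and was not recomputed with tumors left out. Single tumors can weigh on it, such as S46 for Cd1d1 (42.6 FPKM) and S51 for H2-T23 (422 FPKM).

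Nlrc5 ranged from 1.66 FPKM in S56 to 32.1 FPKM in S51. Without subtraction of genotype means, 6 of 9 members correlated with it at a permutation p, adjusted over all genes, under 0.05, where 1.93% of all genes did so with a positive sign. The 6 were H2-T24 (Pearson r = 0.84, permutation p = 2e-05, adjusted 0.0047), H2-T22 (0.82, 2e-05, 0.0047), H2-T23 (0.81, 0.00013, 0.013), H2-M3 (0.80, 2e-05, 0.0047), H2-Q4 (0.78, 5e-05, 0.0072) and H2-Q7 (0.72, 0.00078, 0.043). An r at least as high was found in 0.374% of genes for H2-T24 and in 1.96% for H2-Q7. For H2-Q6, r was 0.66 (permutation p = 0.0023, adjusted 0.081), for Cd1d1 0.59 (permutation p = 0.014, adjusted 0.23) and for Mr1 -0.25 (permutation p = 0.30, adjusted 0.82). The ranks gave Spearman rho from 0.79 to 0.88 for H2-T23, H2-T22, H2-Q4, H2-Q6, H2-Q7 and H2-M3 with permutation p adjusted over all genes from 0.0085 to 0.025, 0.67 for H2-T24 (permutation p = 0.0022, adjusted 0.12), 0.50 for Cd1d1 (permutation p = 0.029, adjusted 0.52) and -0.09 for Mr1 (permutation p = 0.70). In all, 9 relations were computed.

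The relation with Nlrc5 was then read without the 2 tumors farthest from its median, S51 and S56. For the 7 H2 members r stayed between 0.66 for H2-T24 and 0.80 for H2-Q4. For Cd1d1 it fell to 0.24 (permutation p = 0.38), so that relation rested on those 2 tumors. Within genotypes, r of the H2 members lay between 0.62 for H2-M3 and 0.88 for H2-T23 in the 11 Rag2-/- tumors and between 0.74 for H2-T23 and 0.94 for H2-T24 in the 8 Rag2+/- tumors. In S51 the interferon gamma genes were also high, with Irf1 at 225 FPKM and Ifng at 5.28 FPKM, where the medians of Irf1 and Ifng were 28.1 and 0.133 FPKM in Rag2-/- tumors. S51 also had the largest NK cell sum, 115 FPKM, and a muscle sum of 112936 FPKM. The part of those cells in its class I levels was not tested.

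**Figure D5:**
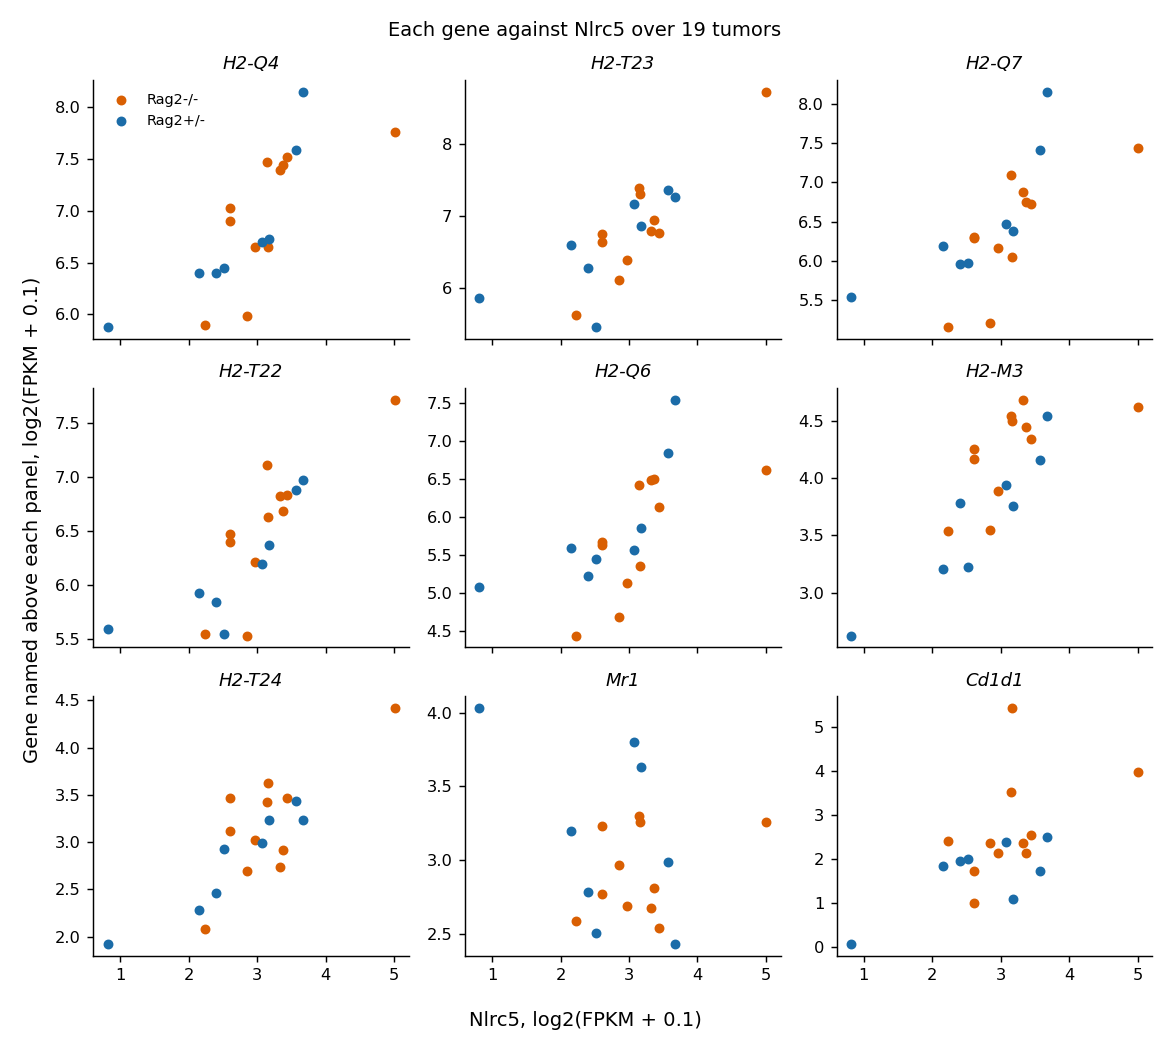
Level of each gene against Nlrc5 in log2(FPKM + 0.1), 1 panel per gene and 1 point per tumor (orange Rag2-/-, blue Rag2+/-). The Pearson r of the 7 H2 genes runs from 0.66 to 0.84, that of Cd1d1 is 0.59 and that of Mr1 -0.25, and S51 and S56 are the points at the right and left ends.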

How the data were processed

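RNA of 19 whole tumors was sequenced as 150-base read pairs. The deposited values are log2(FPKM + 0.1) per gene: per the study's methods, the authors aligned to mouse B38 with at most 2 mismatches, counted on Ensembl R86 models, computed FPKM, scaled by upper quartile and took log2. The labels also name Trimmomatic, STAR and HTSeq. Library totals are not given in the sources used here. All 19 columns matched a tumor by its label, and none was left over.

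Genotypes were compared with limma 3.58.1 (R 4.3.3, variance trend) on genes with mean log2 above 0, with Benjamini-Hochberg adjustment over all 12826 genes and a threshold of 0.05. The code was tested on simulated data. Single values were tested by two-sided exact permutation over 75582 relabelings, and correlations by 100000 permutations (exact within the 8 Rag2+/- tumors). Sums used linear FPKM. Levels in FPKM are 2 to the power of the deposited value minus 0.1. Of the 48795 gene identifiers, 48349 matched a symbol. Promoters are RefSeq GRCm38.p6 and transcripts GENCODE vM21, neither being the annotation of the files. H2-T24 and Cd1d1 were named without a promoter.

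The members, lists and tests were chosen with earlier results of these data known. Besides the 9 members, genes named by rule are, per pathway list, those with an unadjusted p under 0.05 or, where fewer than 3, also the 3 of highest mean, the genes H2-K1, H2-D1, B2m and Nlrc5, the 3 genes most correlated with each member, and Rag2. Outside this rule are Cd3e, Col1a1, Irf1, Ifng, Ncr1, Klrc1, Cd8a, Cd8b1, Trav11, Trav1 and the genes under other observations. They should be read as chosen with their values known. Alternatives were other tumor sets, pseudocounts, filters, normalizations, covariates and variance settings, and, added after seeing the data, each tumor left out in turn. Replicate tumors are separate samples in the labels.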

Additional observations from a re-analysis of the deposited data

How the results depend on the processing

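No member had an adjusted p under 0.05 in any of 11 other limma settings, by the exact permutation test or with any of the 19 tumors left out (the fit without S41 is counted in both). In the 15 listed tumors the difference turned to -0.14 for H2-T23 and -0.053 for H2-Q4, with the muscle list as a covariate it turned to 0.10 for Mr1, and the cause was not tested. Leaving out single tumors, the difference ran from -0.27 to 0.081 for H2-Q6 and from -0.28 to 0.092 for H2-Q7, above 0 without S58 only, from 0.058 to 0.38 for H2-Q4, from -0.36 to -0.13 for Mr1, from 0.063 to 0.37 for H2-T23, from 0.24 to 0.48 for H2-T24, from 0.43 to 0.70 for H2-M3 and from 0.72 to 1.16 for Cd1d1. The sums of sequence-alike genes kept their direction and stayed above 0.05 in all 12 recomputations. The number of genes called by limma was 4 in all, 15 in the 15 listed tumors, 34 with no filter on low values, 2 with the muscle covariate, 0 among genes with mean log2 above 2 (1676 at an unadjusted p under 0.05), 0 by the exact permutation test (1917 at an unadjusted p under 0.05) and 3 to 7 with 1 tumor left out, 7 without S51 and 7 without S56. Of the 6 pathway lists only the receptors moved, to 2 called genes with no filter. The correlation of Cd1d1 with Nlrc5 was 0.48 within Rag2-/- tumors (permutation p = 0.14), 0.71 within Rag2+/- tumors (exact p = 0.056) and 0.24 without the 2 tumors farthest from the median, and that of Mr1 was 0.33 within Rag2-/- (permutation p = 0.36) and -0.47 within Rag2+/- tumors (exact p = 0.25). Quantile normalization shifted the median of all genes to 0.07, from 0.06, and the differences to 0.41 for H2-T23, 0.33 for H2-Q4, -0.068 for H2-Q6 and -0.0076 for H2-Q7, none called. With the Xist level as a covariate the difference was smaller in size for Mr1 (-0.15) and H2-Q4 (0.12). It was larger for H2-T23 (0.36) and Cd1d1 (1.16). Values below 1 FPKM in S41 rest on few fragments.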

Other observations

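Of the 30 other class I-like genes in the table, 21 were too low to test and 8 were at 0 in every tumor, including H2-M10.1, Mill1 and H60c. Among those detected, H2-Q10, a secreted class I gene best known from liver, was at a median of 0.508 FPKM in Rag2-/- and 0.689 FPKM in Rag2+/- tumors, with a highest value of 12.1 FPKM in Rag2-/- tumor S46. Cd1d2, the copy of Cd1d1, was also highest in S46, at 5.58 FPKM, against a median of 0.812 FPKM over all tumors. H2-Q5 was at a median of 8.10 FPKM over all tumors and was highest in S58, at 22.01 FPKM, as were H2-Q4, H2-Q6 and H2-Q7. These genes were chosen after their values were seen.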
